A study of Homo sapiens with 6 samples.

Results

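The JmjC histone demethylases are enzymes that remove methyl groups from the lysines of histone tails. Each holds a Jumonji C (JmjC) domain that binds iron and uses molecular oxygen and 2-oxoglutarate to oxidize the methyl group, which then leaves as formaldehyde. Since oxygen is a substrate, these enzymes belong to the same class as the prolyl hydroxylases that mark the hypoxia-inducible factors (HIF) for degradation, and several of their genes are known targets of HIF. The members sort by the mark they erase. The KDM3 enzymes remove methyl groups from lysine 9 of histone H3, the KDM4 enzymes from lysines 9 and 36, the KDM6 enzymes from lysine 27, KDM5B from lysine 4 and KDM2A from lysine 36, whereas JMJD6 is known mainly as a lysyl hydroxylase of proteins such as splicing factors.

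Their transcripts were followed by RNA-Seq in SK-Hep1 cells (6 libraries), an established human cell line derived from a liver tumour. The study describes the line as endothelial-derived. The family described here is a list of 10 genes, *KDM2A*, *KDM3A*, *KDM3B*, *KDM4A*, *KDM4B*, *KDM4C*, *KDM5B*, *KDM6A*, *KDM6B* and *JMJD6*, matched by symbol to the 62700 gene identifiers of the files. All 10 were found, and all 10 passed the filter of a mean of 1 TPM or more, a relative abundance corrected for transcript length, that left 14020 genes. Of these, *KDM3A*, *KDM4B*, *KDM4C* and *JMJD6* are known HIF targets. The 3 control libraries are titled as a control shRNA and carry a wild-type genotype label, and the 3 knockdown libraries are titled and labelled as knockdown of *RAB30-DT*, a long non-coding RNA. Per the study's methods, cells of both kinds were transduced with a pLKO.1 lentivirus and selected with puromycin. The study built more than 1 knockdown vector, and the labels do not say which of them these libraries carry. No treatment, oxygen tension or time point is given. Nothing in the labels says that the libraries of a group came from separate cultures, so p-values measure the spread between these libraries, which may be technical.

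Between 20127 and 21675 genes were above 0 TPM in a library. Read numbers were not used here and the depth behind each value is unknown. *RAB30-DT* itself stood at 18.16, 11.51 and 13.91 TPM in control replicates 1 to 3 and at 11.94, 10.85 and 6.5 TPM in knockdown replicates 1 to 3. Control replicate 2 lay below knockdown replicate 1, so the groups overlapped, and the log2 fold change of -0.55 ± 0.27 (SE) did not pass the test (limma, adjusted p = 0.355). The knockdown libraries are therefore named by their label in what follows. The study also reports a qPCR check of the *RAB30-DT* knockdown in this cell line, without saying whether it used the RNA of these libraries. Of 6 hepatocyte markers, *ALB*, *APOB*, *TTR* and *HNF4A* were listed at 0 in every library, while *SERPINA1* was at 18.11 to 23.96 TPM in control and 28.25 to 37.19 TPM in knockdown libraries. The 5 endothelial markers summed to 0.13 to 0.22 TPM in control and 0.36 to 0.38 TPM in knockdown libraries, with *KDR* listed at 0. Of 4 mesenchymal markers, *VIM*, an intermediate filament, was at 3793 to 3997 TPM in control and 4336 to 4784 TPM in knockdown libraries. The others were far lower, and their groups overlapped. *FN1* was at 12.83 to 22.01 TPM in control and 18.31 to 22.83 TPM in knockdown libraries. *CDH2* was at 1.77 to 5.54 TPM in control and 3.32 to 4.01 TPM in knockdown libraries. *COL1A1* was at 0.59 to 2.41 TPM in control and 0.82 to 2.15 TPM in knockdown libraries. The leukocyte markers *PTPRC* and *CD3E* were at 0. *CD68*, a lysosomal glycoprotein, was at 28.4 to 66.8 TPM in control and at 107 to 129 TPM in knockdown libraries, and the part of these markers in the results below was not tested.

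*KDM3A* was the member that rose in the knockdown libraries, to 2.46 times its control mean. *KDM4B*, *KDM4C* and *KDM6B* lay above control in every knockdown library, and *KDM4A* and *JMJD6* lay below it, without passing the test across all genes. Values on both sides of control thus stood within the KDM4 genes and within the 4 known HIF targets. At a Benjamini-Hochberg adjusted p under 0.05, 1 of 10 members was called higher, beside 0.371% of all genes tested, and 0 of 10 were called lower, beside 0.67% (limma). At an unadjusted p under 0.05 there were 5 of 10, namely *KDM3A*, *KDM4B*, *KDM4A*, *KDM6B* and *JMJD6*, beside 16.8% of all genes tested. All knockdown libraries lay above all control libraries for 4 of 10 members, beside 9.89% of all genes, and below them for 2 of 10, beside 13.4%. The median log2 fold change was 0.32 over the 10 members and -0.04 over all genes tested. In a bulk sample, fewer cells that express a gene and less of its RNA per cell cannot be told apart.

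**Figure D1:**
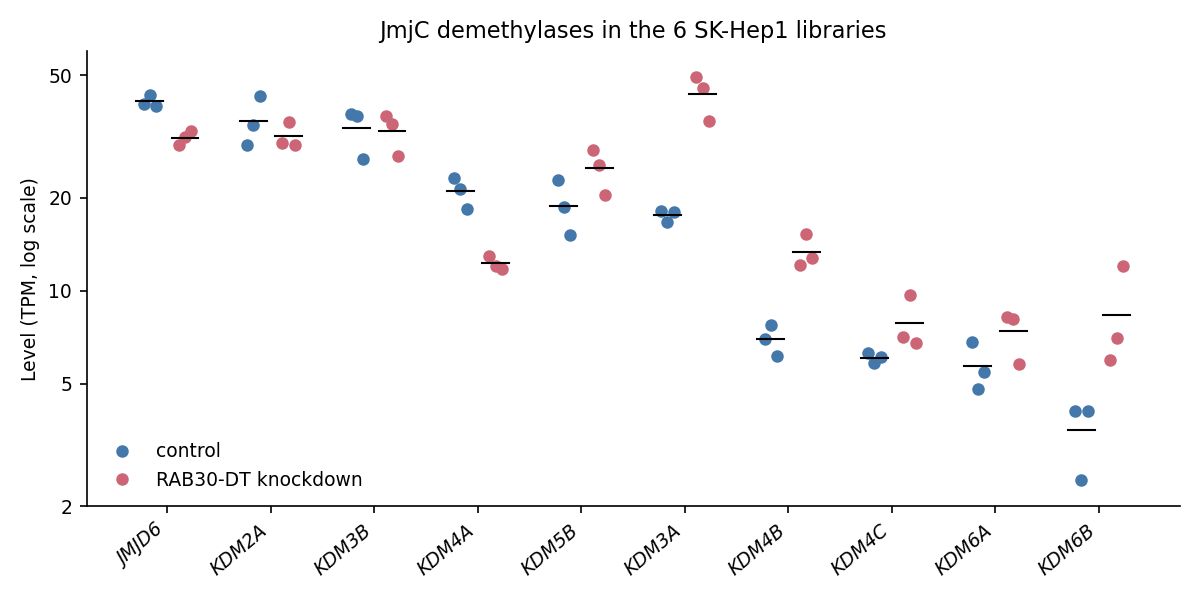
Levels of the 10 JmjC demethylase genes in TPM on a log axis, ordered by their control mean; each point is 1 library (blue control, red knockdown) and the black bar is the mean of 3. The knockdown points of *KDM3A* sit between 35.57 and 49.44 TPM, above its control points at 16.73 to 18.19 TPM, and those of *KDM4A* sit between 11.75 and 12.99 TPM, below its control points at 18.35 to 23.26 TPM.

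*KDM3A* (ENSG00000115548.17) lies on the plus strand at chr2:86440647-86492716 of hg38 and encodes a demethylase of mono- and dimethylated lysine 9 of histone H3 that also acts as a coactivator of nuclear receptors. In control replicates 1 to 3 it was at 18.19, 16.73 and 17.99 TPM, and at 49.44, 45.28 and 35.57 TPM in knockdown replicates 1 to 3. The control libraries differed little among themselves, and the lowest knockdown library was above the highest control library. The mean went from 17.6 ± 0.792 to 43.4 ± 7.12 TPM (SD, n = 3 each). The log2 fold change was 1.24 ± 0.18 (SE), with a 95% interval of 0.82 to 1.66 and an adjusted p of 0.0285 (limma on log2(TPM + 1)). An exact permutation test of the 6 values gave p = 0.1, the smallest that 3 libraries against 3 allow. The call did not hold in every fit that left out 1 library. The adjusted p (limma) was 0.144 without control replicate 2 and 0.129, 0.174 and 0.0995 without knockdown replicate 1, 2 or 3. Over all genes tested, these fits called 12, 18, 15 and 16 genes, against 146 in the main fit. The fold change stayed between 1.09 and 1.38 over the 18 alternative settings.

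Its paralog *KDM3B* (chr5:138352685-138437028), which acts on the same lysine, was at 26.77 to 37.45 TPM in control and 27.37 to 36.89 TPM in knockdown libraries. The ranges overlapped almost wholly and the log2 fold change was -0.03, with an interval of -0.5 to 0.45, which does not reach the estimate for *KDM3A*. The sign of this small value changed with the scaling, to 0.01 with median-of-ratios and 0.06 with quantile normalization. In control libraries *KDM3A* made up 32.7%, 31.2% and 40.2% of the summed TPM of the pair. In knockdown libraries its share was 57.3%, 56.7% and 56.5%. The more abundant transcript of the pair was thus *KDM3B* in each control library and *KDM3A* in each knockdown library. The summed level of the pair was 44.8 to 55.6 TPM in control and 62.9 to 86.3 TPM in knockdown libraries.

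The 3 KDM4 genes encode demethylases of di- and trimethylated lysine 9 of histone H3, which also act on trimethylated lysine 36. *KDM4A* (ENSG00000066135.13, chr1:43650149-43705518) was the member with the most negative change. Its level was 23.26, 21.44 and 18.35 TPM in control and 12.99, 12.05 and 11.75 TPM in knockdown replicates 1 to 3, so the groups did not overlap. The mean was 21.0 ± 2.48 TPM in control and 12.3 ± 0.647 TPM in knockdown (SD, n = 3 each), a ratio of 0.584. The log2 fold change of -0.73 ± 0.18 (SE), with an interval of -1.14 to -0.32, missed the threshold (limma, adjusted p = 0.103). Exons of *KDM4A* share 473 bases with *KDM4A-AS1* on the opposite strand, and the library protocol names no step that marks the strand, so reads of both cannot be told apart there. *KDM4A-AS1* was at 3.74, 4.35 and 7.14 TPM in control and 3.26, 2.34 and 1.73 TPM in knockdown libraries. Its part in the *KDM4A* values was not tested.

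*KDM4B* (ENSG00000127663.15, chr19:4969113-5153598) ran the other way. It was at 7, 7.76 and 6.14 TPM in control and 12.12, 15.27 and 12.81 TPM in knockdown replicates 1 to 3. The lowest knockdown library was above the highest control library, and the means were 6.97 ± 0.811 and 13.4 ± 1.66 TPM (SD, n = 3 each). The log2 fold change was 0.85 ± 0.19 (SE), with an interval of 0.4 to 1.3 and an adjusted p of 0.0894 (limma). Both *KDM4A* and *KDM4B* passed the threshold in 4 of 18 alternatives. These were the fits with library weights, with a replicate block, with the trend on GC content removed, and with a block and the trend removed together.

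*KDM4C* (chr9:6720863-7175648) was at 6.27, 5.84 and 6.09 TPM in control and 7.08, 9.68 and 6.79 TPM in knockdown replicates. Its groups did not overlap, although knockdown replicates 1 and 3 were near control and replicate 2 stood above them. The log2 fold change was 0.31, with an interval of -0.17 to 0.79 (limma, adjusted p = 0.5). Added up, the KDM4 genes came to 34.1 ± 3.1 TPM in control and 33.5 ± 3.05 TPM in knockdown libraries (SD, n = 3 each), with overlapping ranges. The makeup of that sum was another in each group. *KDM4A* made up 61.6 ± 1.87% of it in control and 36.8 ± 3.94% in knockdown libraries. The share of *KDM4B* was 20.5 ± 1.53% in control and 39.9 ± 1.98% in knockdown libraries, and that of *KDM4C* was 17.9 ± 1.75% and 23.3 ± 2.51%. *KDM4A* was the most abundant of the 3 in each control library, whereas in knockdown libraries *KDM4B* exceeded it in replicates 2 and 3 and was just below it in replicate 1. These shares were not tested, and how reads that fit several paralogs were assigned is uncertain, since the methods and the processing notes name different aligners.

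**Figure D2:**
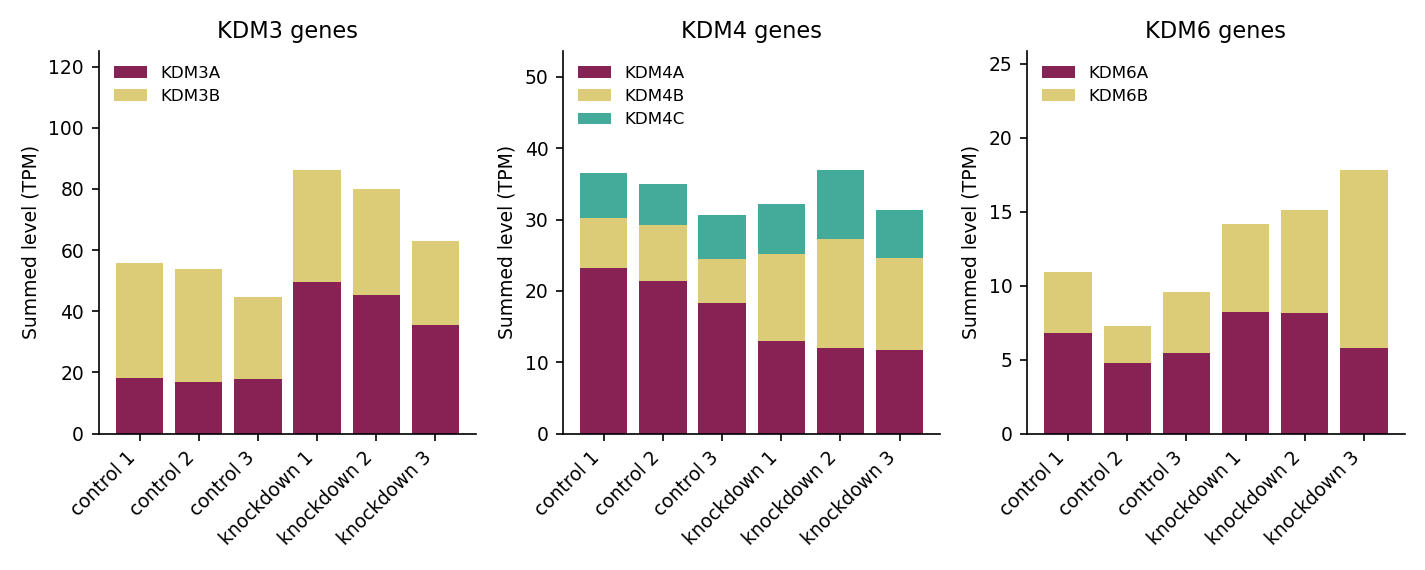
Summed level in TPM of the KDM3, KDM4 and KDM6 genes in each library, with 1 stacked bar per library and 1 colour per gene. The KDM4 bars have like heights in both groups, 30.6 to 36.5 TPM in control and 31.4 to 37 TPM in knockdown, with a smaller *KDM4A* part in knockdown; the *KDM3A* part of the KDM3 bars is larger in knockdown.

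The KDM6 genes act on trimethylated lysine 27 of histone H3, the mark that Polycomb repressive complex 2 sets. *KDM6B* (ENSG00000132510.11, chr17:7834217-7854796) was the member with the lowest control level, 4.08, 2.44 and 4.09 TPM. It was at 5.95, 7.02 and 12.04 TPM in knockdown replicates 1 to 3. Knockdown replicate 3 was well above the other two, and the groups did not overlap. The log2 fold change was 1.01 ± 0.30 (SE), with a wide interval of 0.32 to 1.71, and did not pass the test (limma, adjusted p = 0.152). *KDM6A* (chrX:44873188-45112779), the X-linked paralog, was at 4.80 to 6.81 TPM in control and 5.80 to 8.23 TPM in knockdown libraries. These ranges overlapped, and its log2 fold change of 0.32 had an interval of -0.2 to 0.85. The summed level of both was 9.23 ± 1.85 TPM in control and 15.7 ± 1.9 TPM in knockdown libraries (SD, n = 3 each), without overlap.

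*KDM5B* (chr1:202724495-202808487), which erases di- and trimethylation of lysine 4 of histone H3, was at 15.12 to 22.80 TPM in control and 20.47 to 28.68 TPM in knockdown libraries. Control replicate 1 lay within the knockdown range, and the log2 fold change of 0.39, with an interval of -0.11 to 0.89, did not pass (limma, adjusted p = 0.409). *KDM2A* (chr11:67119263-67258082) binds unmethylated CpG islands through a CXXC zinc finger and removes dimethylation of lysine 36. It was at 29.76 to 42.75 TPM in control and 29.80 to 35.22 TPM in knockdown libraries, with a log2 fold change of -0.15 and an interval of -0.59 to 0.29.

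*JMJD6* (ENSG00000070495.15, chr17:76712832-76726799) had the highest control mean of the members, although *KDM2A* was above it in control replicate 3, at 42.75 TPM. *JMJD6* was the only known HIF target of the 4 that lay lower in the knockdown libraries. Its level was 40.46, 43.24 and 39.86 TPM in control and 29.63, 31.62 and 32.85 TPM in knockdown replicates 1 to 3. The groups did not overlap, and the means were 41.2 ± 1.8 and 31.4 ± 1.62 TPM (SD, n = 3 each). The log2 fold change was -0.38 ± 0.16 (SE), with an interval of -0.74 to -0.03, and an adjusted p of 0.269 (limma). Over the 4 known HIF targets the median log2 fold change was 0.58, with 3 positive and 1 negative. Over the other 6 members it was 0.15, with 3 positive and 3 negative. These groups of genes were not tested against each other.

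**Figure D3:**
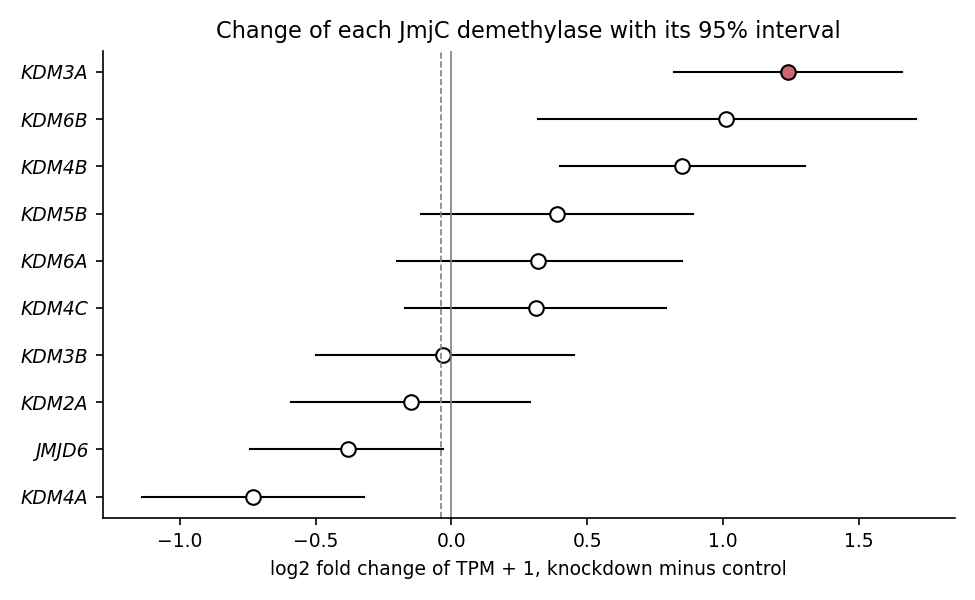
log2 fold change of TPM + 1 (knockdown minus control) of each member, with points for the estimate, lines for its 95% interval and a filled point for an adjusted p under 0.05. The solid vertical line is 0 and the dashed line the median of all genes tested, -0.04; *KDM3A* at 1.24 is the only filled point, and the intervals of *KDM6B*, *KDM4B*, *KDM4A* and *JMJD6* also leave out 0.

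The order of the levels changed with the group. TPM values are corrected for transcript length, so they may be set side by side between genes, though only roughly. Deviations of a library also followed exonic GC content across genes, with rho from -0.606 to 0.489. Among the members this content ran from 36.81% in *KDM6A* to 61.62% in *KDM6B*. Its part in the order was not tested. In control libraries the order fell into 4 steps whose neighbours did not overlap, namely *JMJD6*, *KDM2A* and *KDM3B*, then *KDM4A*, *KDM5B* and *KDM3A*, then *KDM4B*, *KDM4C* and *KDM6A*, and last *KDM6B*. Neighbours within a step could not be ordered beyond their spread. In knockdown libraries *KDM3A* moved from the sixth to the first place, at 43.4 TPM, although its range overlapped that of *KDM3B*, the next in order. *KDM5B* stood alone between an upper step of *KDM3A*, *KDM3B*, *KDM2A* and *JMJD6* and a lower one of the remaining 5 genes, although *KDM3B* in knockdown replicate 3, at 27.37 TPM, lay within its range.

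The promoters of *KDM3A*, *KDM4A*, *KDM4B* and *KDM4C* are shown because these paralogs of 2 subfamilies differed in their values and include 3 of the known HIF targets. Each runs from 250 bases before to 50 bases after the annotated start, as RefSeq gives it on GRCh38.p14. HIF binds hypoxia response elements with the core ACGTG or GCGTG, which were searched on both strands and stand in capitals. ACGTG within CACGTG is read on both strands, so such a site counts as an overlapping pair. All 4 genes lie on the plus strand.
*KDM3A*, chr2:86441121-86441420: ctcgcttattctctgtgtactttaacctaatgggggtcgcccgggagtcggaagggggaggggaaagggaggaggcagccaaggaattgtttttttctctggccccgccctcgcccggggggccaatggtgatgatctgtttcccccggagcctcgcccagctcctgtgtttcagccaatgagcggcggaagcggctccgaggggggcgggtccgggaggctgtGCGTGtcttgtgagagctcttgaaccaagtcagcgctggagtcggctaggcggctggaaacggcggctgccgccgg
*KDM4A*, chr1:43649899-43650198: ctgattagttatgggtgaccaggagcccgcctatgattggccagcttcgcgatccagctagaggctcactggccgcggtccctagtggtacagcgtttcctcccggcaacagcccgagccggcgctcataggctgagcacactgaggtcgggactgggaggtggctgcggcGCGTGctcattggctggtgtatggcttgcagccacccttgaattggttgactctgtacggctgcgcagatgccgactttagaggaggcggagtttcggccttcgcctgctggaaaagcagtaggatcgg
*KDM4B*, chr19:4968863-4969162: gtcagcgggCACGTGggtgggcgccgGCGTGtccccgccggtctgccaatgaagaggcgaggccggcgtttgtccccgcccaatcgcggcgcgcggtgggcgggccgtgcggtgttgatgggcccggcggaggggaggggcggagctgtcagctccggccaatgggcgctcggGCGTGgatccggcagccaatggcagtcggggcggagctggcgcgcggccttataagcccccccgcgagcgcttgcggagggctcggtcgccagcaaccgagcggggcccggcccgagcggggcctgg
*KDM4C*, chr9:6757723-6758022: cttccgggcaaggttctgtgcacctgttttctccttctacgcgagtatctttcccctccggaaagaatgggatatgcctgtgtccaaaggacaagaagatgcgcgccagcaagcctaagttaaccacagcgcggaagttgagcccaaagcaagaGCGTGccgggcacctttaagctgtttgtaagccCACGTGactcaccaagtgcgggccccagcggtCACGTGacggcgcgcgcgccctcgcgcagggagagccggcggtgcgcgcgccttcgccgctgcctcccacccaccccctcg

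With the start base as 0, the *KDM3A* promoter held GCGTG at -26, and the window of its second annotated start overlaps this one and holds the same site. *KDM4A*, which lay lower, held GCGTG at -79. *KDM4B* held CACGTG at -241 and GCGTG at -224 and -77. *KDM4C* held CACGTG at -63 and -31, near its start, and GCGTG at -96. *KDM6A*, not among the known HIF targets listed here and with overlapping groups, held as many cores. They were ACGTG at -113, CACGTG at -95, and GCGTG at -87 and -27. At least 1 core stood in a promoter of 8 of the 9 matched members, all but *KDM3B*, and *JMJD6* was not matched. Over 35116 promoters of the same length, 48.4% held either core, 21.4% ACGTG and 36.5% GCGTG, so these letters are common. A match describes the sequence and is no measure of binding. In the 3′ UTRs of the canonical transcripts, the sequence GAGTGAA, taken from an earlier scan of these data, occurred at 0 sites in the 10 members. It occurred in 12.5% of 11539 tested genes with a 3′ UTR.

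The 5 genes whose level over the 6 libraries followed *KDM3A* most closely were *FLI1*, ENSG00000273521, *BNIP3*, *LINC02057* and *MIR34AHG*, with Pearson's r from 0.998 to 0.994 on log2(TPM + 1). All 5 were higher in each knockdown library than in any control library, so that r over 6 libraries of 2 groups holds the group difference and is given as a description. *FLI1*, an ETS transcription factor of blood and endothelial cells, was at 3.38 ± 0.227 TPM in control and 6.29 ± 0.663 TPM in knockdown (SD, n = 3 each), and its change did not pass the test (limma, adjusted p = 0.139). *BNIP3*, a mitochondrial receptor of mitophagy and a HIF target, rose from 102 ± 5.39 to 427 ± 73.3 TPM (limma, adjusted p = 0.00444). *MIR34AHG*, the host transcript of miR-34a, rose from 1.74 ± 0.0473 to 6.31 ± 0.98 TPM (limma, adjusted p = 0.0363).

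Other genes that hold a JmjC domain were spread around 0. Of 19 such genes 17 were tested, with a median log2 fold change of 0.11. By limma 0 were called higher, beside 0.371% of all genes tested, and 0 lower, beside 0.67%. At an unadjusted p under 0.05 there were 3 of 17, beside 16.8% of all genes tested (limma). The groups did not overlap for 6 of the 17. Of these, 2 were higher in knockdown, beside 9.89% of all genes tested, and 4 were lower, beside 13.4%. The lowest p values belonged to *JMJD7*, a lysyl hydroxylase, at 3.17, 3.85 and 4.55 TPM in control and 2.23, 1.81 and 1.85 TPM in knockdown libraries, and to *RIOX1*, a ribosomal oxygenase. Their log2 fold changes were -0.71 (limma, adjusted p = 0.196) and -0.53 (limma, adjusted p = 0.226). *JMJD1C*, the further KDM3 relative, was at 21.84 to 42.43 TPM in control and 38.15 to 59.60 TPM in knockdown libraries. *HR* was listed at 0, and *KDM4D* was under the filter. The flavin-dependent demethylases *KDM1A* and *KDM1B*, which need no 2-oxoglutarate, gave log2 fold changes of -0.35 (limma, adjusted p = 0.337) and -0.26 (limma, adjusted p = 0.668). Of the TET enzymes, dioxygenases that oxidize 5-methylcytosine, *TET2* and *TET3* were tested. They gave -0.07 (limma, adjusted p = 0.92) and 0.12 (limma, adjusted p = 0.795). None of *KDM1A*, *KDM1B*, *TET2* and *TET3* had an unadjusted p under 0.05, beside 16.8% of all genes tested (limma).

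The methyltransferases that write the same marks gave 0 calls by limma among 19 genes. Of all genes tested, 0.371% were called higher and 0.67% lower. The median log2 fold change was below 0 in each list, beside -0.04 over all genes tested. For lysine 9, 6 genes had a median log2 fold change of -0.22. At an unadjusted p under 0.05 there were 2 of 6, beside 16.8% of all genes tested (limma). These were *SUV39H1*, which sets the trimethyl mark of heterochromatin, at -0.68 with overlapping groups (limma, adjusted p = 0.276), and *EHMT1*, which sets the dimethyl mark, at -0.35 (limma, adjusted p = 0.292). *EHMT1* was at 50.05, 52.38 and 49.33 TPM in control and 38.58, 40.49 and 39.58 TPM in knockdown libraries, without overlap. For lysine 27, *EZH2*, the catalytic subunit of Polycomb repressive complex 2, was at 79.96, 65.72 and 86.60 TPM in control and 52.89, 46.62 and 38.48 TPM in knockdown libraries. Its log2 fold change was -0.74 ± 0.19 (SE) with an adjusted p of 0.112 (limma), and that of *EZH1* was -0.23 (limma, adjusted p = 0.611). For lysines 36 and 4 no gene had an unadjusted p under 0.05, beside 16.8% of all genes tested (limma). For lysine 36 the median of 5 genes was -0.13, with *NSD2* at -0.34 (limma, adjusted p = 0.318) and *NSD1* at -0.19 (limma, adjusted p = 0.614). For lysine 4 the median of 6 genes was -0.08, with 3 positive and 3 negative. *KMT2C* was at -0.56 (limma, adjusted p = 0.371) and *KMT2D* at -0.24 (limma, adjusted p = 0.57).

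The enzymes that make or use 2-oxoglutarate, succinate and fumarate, which set the supply of substrate and inhibitors, were 14 genes. By limma 0 were called higher, beside 0.371% of all genes tested, and 0 lower, beside 0.67%. At an unadjusted p under 0.05 there were 0 of 14, beside 16.8% of all genes tested (limma). The median log2 fold change of the 14 was -0.08. The lowest p values were those of *SDHD*, a subunit of succinate dehydrogenase, at 0.35 (limma, adjusted p = 0.414), and *IDH3A*, a subunit of isocitrate dehydrogenase, at -0.28 (limma, adjusted p = 0.461). Of the HIF subunits, *ARNT*, the shared beta subunit, was at 20.1 ± 2.66 TPM in control and 12.7 ± 0.539 TPM in knockdown (SD, n = 3 each), and its log2 fold change was -0.62 (limma, adjusted p = 0.149). *HIF1A* gave 0.35 (limma, adjusted p = 0.589) and *EPAS1* gave 0.46 (limma, adjusted p = 0.419), both with overlapping groups.

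HIF targets outside the family were kept as a separate list, which was chosen with earlier results of these data known. Of 14 genes 12 were tested, with a median log2 fold change of 1.05. At an unadjusted p under 0.05 there were 9, beside 16.8% of all genes tested (limma). Without overlap, 9 lay above control, beside 9.89%. By limma, 5 were called higher, beside 0.371% of all genes tested, and 0 lower, beside 0.67%. The 5 were *BNIP3*, *PFKFB4* and *PDK1*, regulators of mitophagy, glycolysis and pyruvate dehydrogenase, and *P4HA1* and *P4HA2*, collagen prolyl hydroxylases that use 2-oxoglutarate as the demethylases do. *PFKFB4* rose from 5.07 ± 1.97 to 31.4 ± 6.21 TPM (limma, adjusted p = 0.0215) and *PDK1* from 9.65 ± 3.76 to 33.9 ± 6.81 TPM (limma, adjusted p = 0.0368). *P4HA1* rose from 13 ± 5.56 to 45.8 ± 12.3 TPM (limma, adjusted p = 0.0494) and *P4HA2* from 20.1 ± 3.59 to 52.5 ± 3.23 TPM (limma, adjusted p = 0.0252). *ADM* gave a negative value, -0.56, with 301.45 TPM in control replicate 3 against 68.07 and 87.17 TPM in the other control libraries, and *CA9* was listed at 0. *SLC2A1* gave 0.23 (limma, adjusted p = 0.729) and *LDHA* gave 0.18 (limma, adjusted p = 0.579), both with overlapping groups. This list and the family share no gene, and the members called or not were not tested against it.

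**Figure D4:**
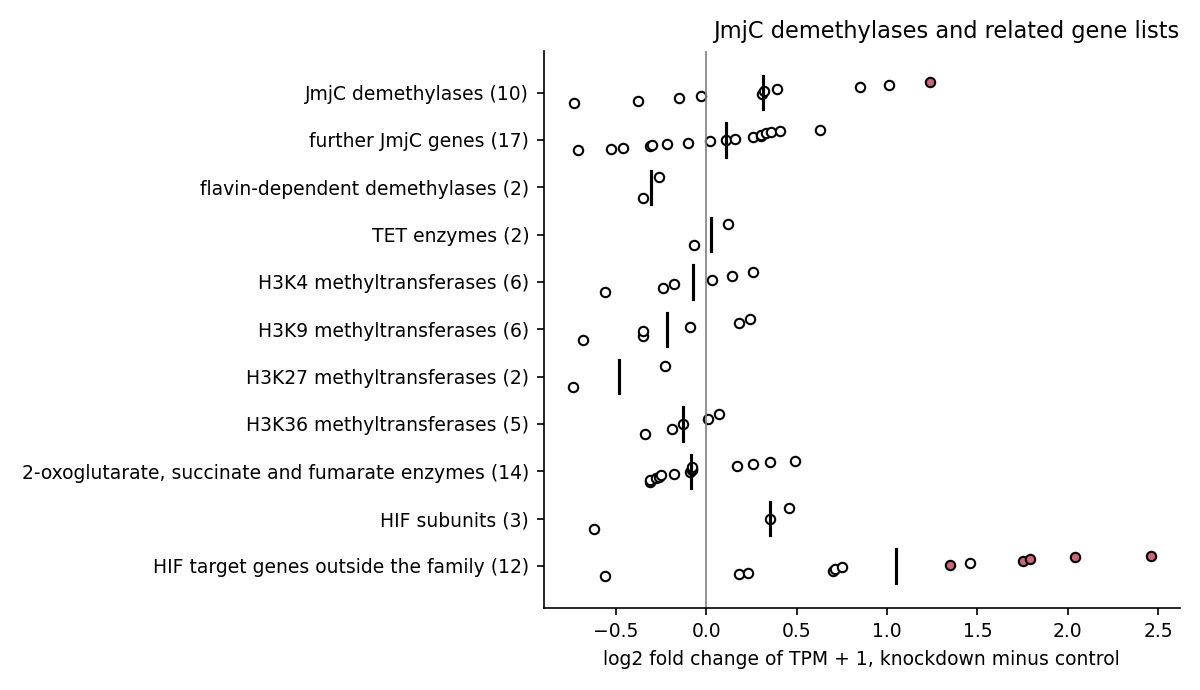
log2 fold change of TPM + 1 (knockdown minus control) of each tested gene, 1 row per gene list with the number tested in brackets, filled points for an adjusted p under 0.05 and a vertical bar for the median. The HIF targets outside the family hold 5 filled points and a median of 1.05, the JmjC demethylases 1 filled point and a median of 0.32, and the other lists none.

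**Figure D5:**
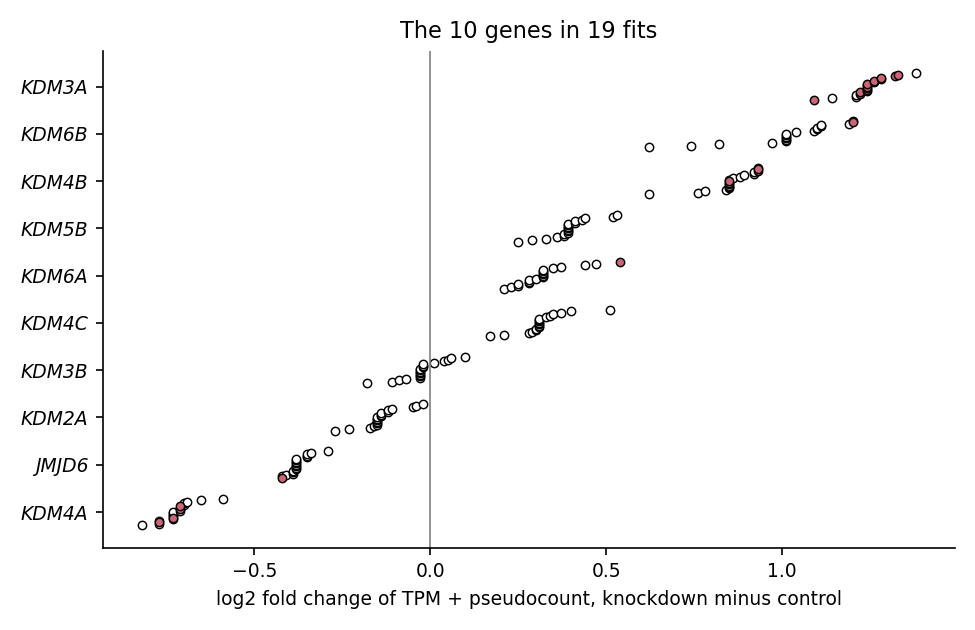
log2 fold change of TPM plus pseudocount (knockdown minus control) of each member in the main fit and 18 alternatives, 1 point per fit, filled where the adjusted p was under 0.05. *KDM3A* lies between 1.09 and 1.38 and is filled in 13 of 18 alternatives, *KDM4A* lies between -0.82 and -0.59, and *KDM3B* falls on both sides of 0.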

How the data were processed

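RNA-Seq libraries of poly-A selected RNA were paired-end sequenced on an Illumina NovaSeq. The authors' methods name fastp (v0.23.2), STAR (v2.7.10b), samtools (v0.1.9), RSEM (v1.3.0) and GENCODE Release 45. The submitters' processing notes instead name HISAT2 (v2.0.5) and hg38, and all 62700 identifiers were those of GENCODE Release 44. The authors deposited gene-level TPM values with 2 decimals, which hold no read numbers, so precision rests on 3 libraries per group.

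The 14020 genes whose mean reached 1 TPM were fitted on log2(TPM + 1), knockdown against control, with limma 3.58.1 under R 4.3.3 (lmFit, eBayes with trend, 2-sided). Calls used Benjamini-Hochberg adjusted p under 0.05 over all of them. The fit was checked on simulated data. Exact permutation tests were 2-sided. The members and lists were chosen with earlier results of these data known. Named were all members, the called genes and the 2 with the lowest p in each related list, and the 5 genes most like the member with the lowest p. Marker genes, the targeted gene, the antisense gene, *JMJD1C*, *HIF1A*, *ADM*, *SLC2A1*, *LDHA* and genes listed at 0 or under the filter were named in addition. Promoters came from RefSeq (GRCh38.p14).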

Additional observations from a re-analysis of the deposited data

How the results depend on the processing

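The 18 alternatives gave 180 values of the members, of which 159 kept their direction and side of the threshold, 11 passed it anew, 5 no longer passed it and 5 changed sign. The count of 146 genes called (52 higher, 94 lower) was 13 with no filter, 3218 with arrayWeights, 861 with a replicate block, 1191 with the GC trend removed and 1028 with the block and the GC trend removed. It was 68 higher and 68 lower with median-of-ratios scaling and 78 and 83 with quantile normalization. Leaving out 1 library gave 12 genes (without control replicate 2) to 489 (without control replicate 1), with 18, 15 and 16 without knockdown replicates 1, 2 and 3. Of the members, 1 was called in the main fit, 0 with no filter, 6 with arrayWeights and 3 each with the block, the GC trend removed or both. Leaving out 1 library called 0 (without control replicate 2 or any knockdown replicate) to 1 members. *KDM3A* had an adjusted p of 0.0793 with no filter and of 0.000647 to 0.174 over all alternatives. *KDM4A* and *KDM4B* had 0.00385 and 0.00562 with arrayWeights, 0.0412 and 0.0384 with the block, 0.0243 and 0.0288 with the GC trend removed, and 0.0394 and 0.0384 with both. With arrayWeights, *KDM6B* (0.0079), *JMJD6* (0.0226) and *KDM6A* (0.046) passed as well. Library weights were 3 for control replicate 2, 4.39 for knockdown replicate 2 and up to 0.948 elsewhere. *KDM3B* changed sign to 0.01 with median-of-ratios scaling, 0.06 with quantile normalization, and 0.05, 0.04 and 0.10 without control replicate 1, control replicate 2 or knockdown replicate 3, within a range of -0.18 to 0.10. The cause of these shifts was not tested. Deviations of libraries with the same number correlated at 0.41, 0.0359 and 0.279 for replicates 1 to 3. Those of replicates 1 and 3 thus deviated partly together. The labels state no pairing, so the main fit held none, and the replicate block is given as an alternative. Whether libraries of the same number were handled together was not tested. Across genes, the correlation (rho) of a library's deviation with exonic GC content was -0.606, 0.294 and 0.489 in control replicates 1 to 3 and -0.524, 0.016 and 0.335 in knockdown replicates 1 to 3. Without read numbers, counting error could not be given.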
